A study of Mus musculus with 8 samples.

Results

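The genes described are 8 members of the serine and arginine rich (SR) family of splicing factors, Srsf1, Srsf2, Srsf3, Srsf5, Srsf6, Srsf7, Srsf10 and Srsf11, and 2 kinases that phosphorylate them, Clk1 and Clk4. They were taken by a fixed list of Ensembl identifiers, a rule that uses no measured value, and make up 10 of the 28785 genes listed in any library. RNA-seq was made from chromatin and from cytoplasm of mouse embryonic fibroblasts (MEFs, connective tissue cells grown from mouse embryos) of genotype TSC2+/+ and strain C57BL/6J. Cells had 1 h of heat shock at 42 °C with 3 h of recovery at 37 °C, or no heat shock. This gave 4 libraries: heat-shocked chromatin, unstressed chromatin, heat-shocked cytoplasm and unstressed cytoplasm, with 1 library each.

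The chromatin sample was the pellet left after nuclei had been lysed in a buffer with urea and the soluble nuclear part removed, and the RNA polymerase II inhibitor a-amanitin was in the fractionation buffers of all groups, per the labels. The libraries held 19536459 reads (heat-shocked chromatin), 18364642 (unstressed chromatin), 11131382 (heat-shocked cytoplasm) and 8292312 (unstressed cytoplasm), as recovered from the deposited values. With 1 library per group there was no replicate, no test and no spread between cultures, and intervals given below are exact 95% intervals on reads that cover counting error only. The 2 chromatin libraries immunoprecipitated with antibodies to m6A, a methyl mark on adenosine, and their 2 inputs were not analysed here.

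SR proteins bind short exonic sequences through RNA recognition motifs and help the spliceosome to choose splice sites through a tail rich in arginine and serine. CLK kinases are nuclear and phosphorylate that tail, which releases SR proteins from nuclear speckles. Many SR genes and Clk1 and Clk4 are known for detained introns, introns left in otherwise finished transcripts that then stay in the nucleus, and Clk1 and Clk4 transcripts stored in this way in mammalian cells have been described as being spliced after stress. The deposited values are 1 total per gene, so spliced and unspliced RNA of a gene could not be separated and intron retention itself was not measured.

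All 10 genes had reads in all 4 libraries and a mean of at least 1 RPKM (reads scaled to gene length and to library total) over the libraries, the limit used for comparisons across genes, which 4688 genes passed. RPKM was here relative to the whole gene span with introns. The recovered spans lay between 87.9% and 115% of the RefSeq span of the named gene for 8 of the 10. For Srsf2 and Srsf3 they were 42.3% and 49.9%, and a doubled span would be 84.5% and 99.8%. The reads recovered for these 2 genes may therefore be too few and their intervals too wide, while ratios between libraries do not depend on it. In RefSeq on GRCm38.p6, the build of the files being GRCm38, 1465 bases of Srsf2 (38.8% of its span) overlap Mfsd11 and 549 bases of Clk4 (2.94%) overlap BC049762. How reads were assigned to strands, overlapping genes, paralogues and pseudogenes was not given in the sources used here. Srsf2 in particular is therefore uncertain.

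Srsf2 and Srsf1 had the highest levels per span in all libraries but unstressed chromatin, where Srsf5 stood between them, and Clk4 had the lowest level in all 4. Srsf2, a splicing activator long used as a marker of nuclear speckles (ENSMUSG00000034120, chr11:116849897-116853675), had 20.8 RPKM in heat-shocked and 19.9 in unstressed chromatin, and 16.7 in heat-shocked and 24.9 in unstressed cytoplasm. Srsf1, the founding SR protein (ENSMUSG00000018379, chr11:88046499-88053757), had 19.9 RPKM in heat-shocked and 14.1 in unstressed chromatin, against 12.0 in heat-shocked and 16.1 in unstressed cytoplasm. For these genes cytoplasmic levels were of the same order as chromatin levels, and in unstressed cells they were above them. Among 4688 genes, both stood above 92.9% or more of the levels in every library.

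Srsf5 (ENSMUSG00000021134, chr12:80945495-80950507) had 8.19 RPKM in heat-shocked and 15.99 in unstressed chromatin, and 1.76 in heat-shocked and 4.89 in unstressed cytoplasm. Srsf6 (ENSMUSG00000016921, chr2:162931508-162937121) had 10.5 and 12.0 RPKM in heat-shocked and unstressed chromatin, and 4.54 and 9.46 in heat-shocked and unstressed cytoplasm. Srsf5 and Srsf6 are related SR proteins with a pair of RNA recognition motifs each, and on the deposited scale both were lower in the heat-shocked library of each fraction. Srsf3 (ENSMUSG00000071172, chr17:29032660-29043372), a short SR protein with a single RNA recognition motif that also acts in mRNA export, had 5.81 and 5.69 RPKM in heat-shocked and unstressed chromatin, and 1.65 and 3.00 in heat-shocked and unstressed cytoplasm. Srsf7 (ENSMUSG00000024097, chr17:80200080-80207369), its close relative with a zinc knuckle, had 4.90 and 5.27 RPKM in heat-shocked and unstressed chromatin, and 2.49 and 3.46 in heat-shocked and unstressed cytoplasm. In Srsf3 and Srsf7 the 2 chromatin values lay close together and the cytoplasmic ones were lower in heat-shocked cells.

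Srsf10 (ENSMUSG00000028676, chr4:135855752-135869908), known as a splicing repressor when dephosphorylated after heat shock, had 7.34 and 7.31 RPKM in heat-shocked and unstressed chromatin, and 1.48 and 2.97 in heat-shocked and unstressed cytoplasm. Srsf11 (ENSMUSG00000055436, chr3:158010915-158036667), an SR-related protein, had 10.6 and 7.29 RPKM in heat-shocked and unstressed chromatin, and 1.75 and 1.85 in heat-shocked and unstressed cytoplasm. On the deposited scale Srsf10 differed mainly in cytoplasm and Srsf11 mainly in chromatin. With RPKM sums made equal, their log2(RPKM + 1) ratios of heat-shocked to unstressed cells were -0.59 in chromatin and -0.69 in cytoplasm for Srsf10, and -0.09 in chromatin and -0.16 in cytoplasm for Srsf11. The kinase Clk1 (ENSMUSG00000026034, chr1:58411988-58424088) had 4.34 and 8.26 RPKM in heat-shocked and unstressed chromatin, and 0.647 and 0.773 in heat-shocked and unstressed cytoplasm. Its paralogue Clk4 (ENSMUSG00000020385, chr11:51263114-51281770) had 2.90 and 4.36 RPKM in heat-shocked and unstressed chromatin, and 0.354 and 0.385 in heat-shocked and unstressed cytoplasm. The kinases were the only ones of the 10 genes below 1 RPKM in cytoplasm, on 64 to 100 reads per library.

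**Figure D1:**
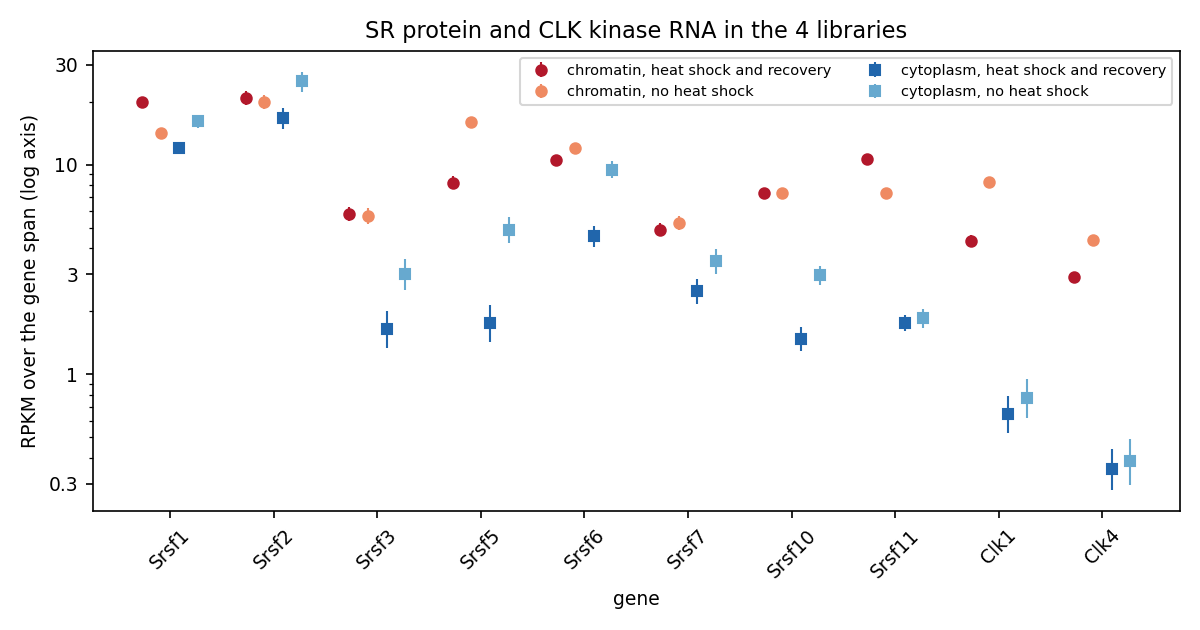
RPKM per gene span (log axis) of the 10 genes in the 4 libraries, with bars for exact 95% counting intervals. Clk1 and Clk4 lie below 1 RPKM in both cytoplasmic libraries and between 2.90 and 8.26 RPKM in chromatin, while Srsf1 and Srsf2 lie above 12 RPKM in all 4.

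Neighbours in the order of levels often could not be told apart by counting. In heat-shocked chromatin the intervals of 4 neighbouring pairs overlapped: Srsf2 and Srsf1, Srsf11 and Srsf6, Srsf5 and Srsf10, and Srsf7 and Clk1. In heat-shocked cytoplasm Srsf5, Srsf11, Srsf3 and Srsf10 formed a run of overlapping neighbours at 1.76 to 1.48 RPKM. In unstressed chromatin the overlaps were Srsf10 with Srsf11 and Srsf3 with Srsf7, and in unstressed cytoplasm Srsf7 with Srsf3 and Srsf3 with Srsf10. The reads recovered for the 8 SR genes summed to 709 RPM (reads scaled to the library total alone, without gene length) in heat-shocked and 631 in unstressed chromatin, and to 231 in heat-shocked and 351 in unstressed cytoplasm. Those of the 2 kinases summed to 118 RPM in heat-shocked and 202 in unstressed chromatin, and to 16.1 in heat-shocked and 18.5 in unstressed cytoplasm. The higher SR sum in heat-shocked chromatin rested on Srsf11: without it, an alternative chosen after seeing the data, the other 7 SR genes summed to 431 RPM in heat-shocked and 441 in unstressed chromatin, and to 185 in heat-shocked and 303 in unstressed cytoplasm. All SR sums may be too low, since the reads recovered for Srsf2 and Srsf3 may be too few. The libraries are bulk, so fewer cells with a transcript and less of it per cell cannot be told apart.

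Chromatin was first compared with cytoplasm in unstressed cells. Each ratio compares a gene's share of 2 libraries, so it does not give how its RNA was divided between the fractions. Clk1 and Clk4 had far higher deposited RPKM in chromatin, by 10.7-fold (8.64 to 13.4) and 11.3-fold (8.81 to 14.8). Srsf11 followed at 3.95-fold (3.56 to 4.39), then Srsf5 at 3.27-fold (2.82 to 3.80) and Srsf10 at 2.46-fold (2.19 to 2.76). At the other end Srsf1 and Srsf2 were lower in chromatin than in cytoplasm, with ratios of 0.876 (0.806 to 0.953) and 0.799 (0.697 to 0.917), a direction that turned to higher (1.39 and 1.29 on the log2 scale of RPKM + 1) with RPKM sums made equal. Srsf3 (1.90), Srsf7 (1.52) and Srsf6 (1.26) lay between.

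The median ratio of all 4512 genes compared was 1.96, so Srsf3, Srsf7, Srsf6, Srsf1 and Srsf2 were below the median gene and the other 5 above it. For Srsf3 this was within counting error (1.57 to 2.31), and its log2(RPKM + 1) ratio was above the median (0.74 against 0.58). On the scale of log2(RPKM + 1) ratios used for calls, which shrinks ratios of the kinases because of their low cytoplasmic values, Clk1 stood at 2.38 (higher than 97.9% of genes) and Clk4 at 1.95 (94.5%). By the rule of at least 2-fold on this scale, 5 of 10 members were called higher in chromatin (Clk1, Clk4, Srsf11, Srsf5 and Srsf10), where 32.4% of all genes were. None was called lower, where 11.7% of all genes were. The members' median log2 ratio was 0.90, against 0.58 over all genes.

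Each RPKM value is a share of its own library, and the level of these ratios moved with the scale. Median log2 ratios of all genes were 0.58 on the deposited scale, 1.65 with RPKM sums made equal and -0.41 with the 10 most abundant genes left out of the scale. Clk1, Clk4, Srsf11 and Srsf5 were above 0 on each of the scales used, Srsf5 by only 0.04 on the last, on which Srsf10 turned to -0.30. Differences between members of the same 2 libraries do not depend on the scale. The chromatin to cytoplasm ratio of Clk4 was 14.2 times that of Srsf2 (10.6 to 19.1), 2.87 times that of Srsf11 (2.18 to 3.82) and 1.06 times that of Clk1 (0.754 to 1.49). Of the 45 pairs of members, 41 differed in this ratio beyond counting error, and the pair of Clk1 and Clk4 did not.

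**Figure D2:**
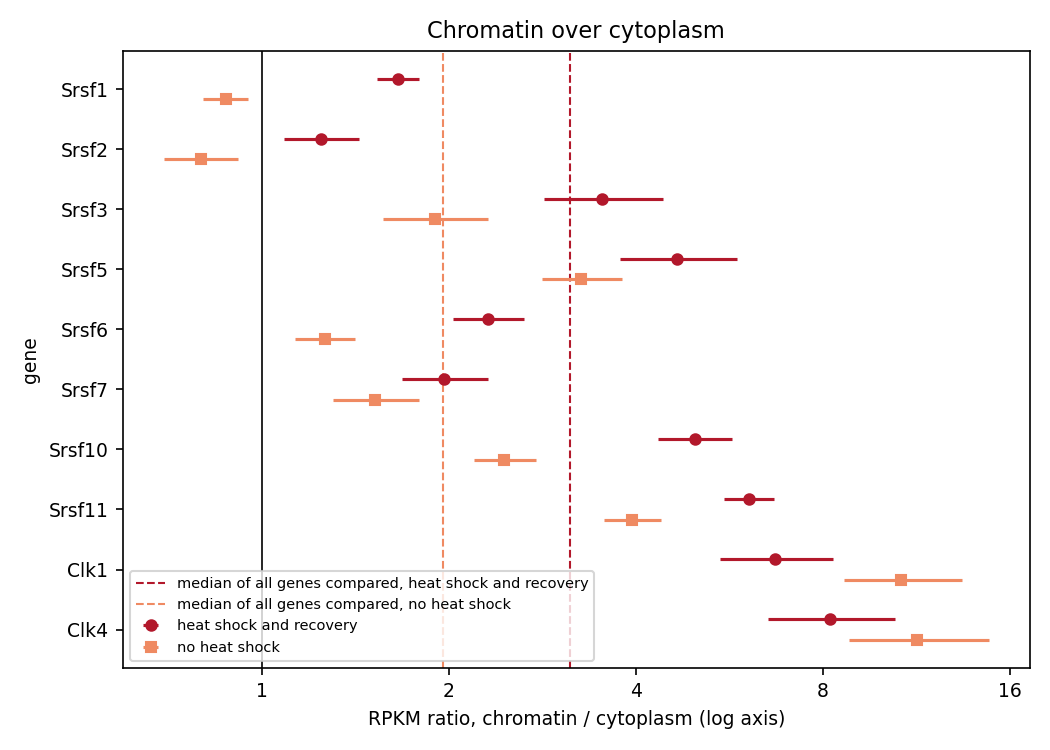
RPKM ratio of chromatin to cytoplasm (log axis) for each gene in heat-shocked and unstressed cells, with exact 95% counting intervals; dashed lines mark the medians of all genes compared (3.13 and 1.96). Clk1 and Clk4 have the highest plain ratios in both conditions, in heat-shocked cells with an interval of Clk1 that overlaps that of Srsf11, and on the deposited scale they are the only 2 of the 10 genes whose ratio is lower in heat-shocked cells.

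Gene span was one property that went with this order. Longer genes of the series had higher ratios of chromatin to cytoplasm, with a rank correlation of 0.54 across the 4512 genes, and it was 0.73 across the 10 members with their RefSeq spans. Both are descriptions across genes of the same 2 libraries. Among 2095 genes with spans of over 5 to 30 kb, a range chosen after seeing the data that holds all members but Srsf2, the median ratio was 1.62. Clk4 (11.3) and Clk1 (10.7) were above 97.7% and 97.6% of these genes, Srsf11 (3.95) above 83.0%, Srsf5 (3.27) above 77.3%, Srsf10 (2.46) above 67.2% and Srsf3 (1.90) above 56.9%. Srsf7, Srsf6 and Srsf1 were below the median.

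**Figure D3:**
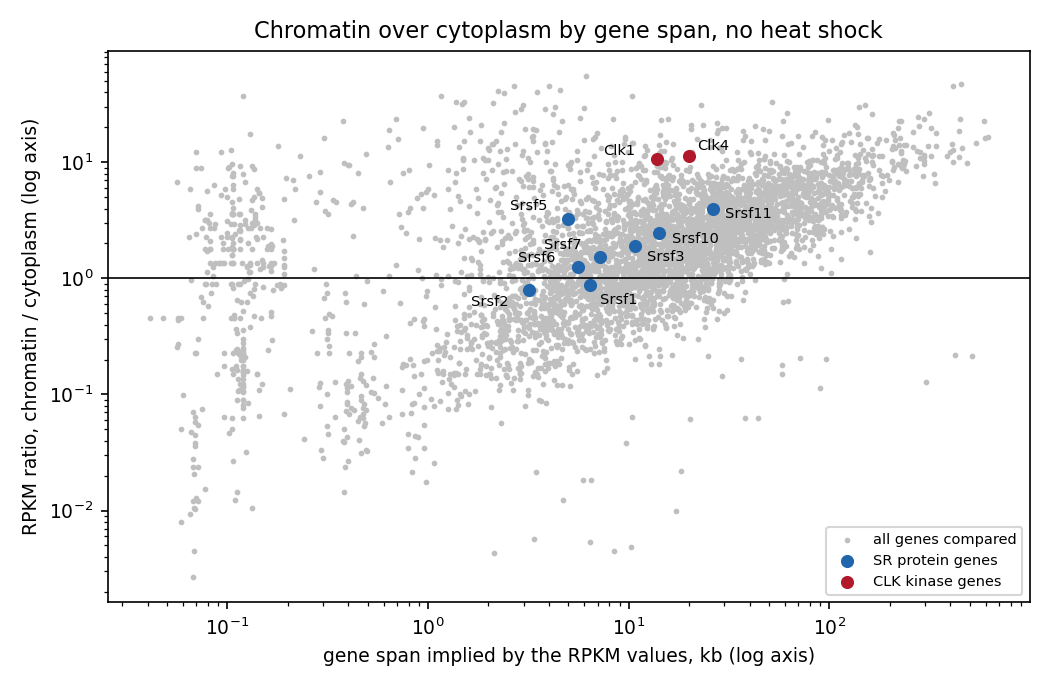
RPKM ratio of chromatin to cytoplasm in unstressed cells (log axis) against the gene span implied by the RPKM values (log axis), for all 4512 genes compared in grey, SR genes in blue and kinase genes in red, with Srsf2 and Srsf3 at the doubled span given above. Most SR genes lie inside the grey band that rises with span, while Clk1, Clk4 and Srsf5 lie at its upper side.

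After heat shock and recovery, all 10 genes had more deposited RPKM in chromatin than in cytoplasm, as did most genes compared (lower quartile 1.35). Clk4 (8.20-fold, 6.52 to 10.4) and Clk1 (6.70-fold, 5.46 to 8.30) still had the highest ratios. They were now followed closely by Srsf11 (6.07-fold, 5.55 to 6.66), Srsf10 (4.97-fold, 4.34 to 5.72) and Srsf5 (4.66-fold, 3.77 to 5.80). The remaining SR genes had 3.53-fold (Srsf3), 2.31-fold (Srsf6), 1.97-fold (Srsf7), 1.66-fold (Srsf1) and 1.25-fold (Srsf2). The ratio of Clk1 exceeded that of Srsf11 by 1.10 times (0.880 to 1.39), which is within counting error, and on the log2(RPKM + 1) scale Srsf11 (2.08) stood above Clk1 (1.70) and Clk4 (1.53). In unstressed cells the ratio of Clk1 exceeded that of Srsf11 by 2.71 times (2.13 to 3.47).

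In heat-shocked cells 7 of 10 members were called at least 2-fold higher in chromatin, all but Srsf7, Srsf1 and Srsf2, where 45.8% of 4575 genes were. None was called lower, where 6.93% of all genes were. The median gene had a ratio of 3.13, and the members' median log2 ratio of RPKM + 1 was 1.45 against 0.92 over all genes. With the 10 most abundant genes left out of the scale, Clk1, Clk4, Srsf3, Srsf5, Srsf10 and Srsf11 stayed above 0 and Srsf1, Srsf2, Srsf6 and Srsf7 were below it.

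Chromatin RNA was next compared between heat-shocked and unstressed cells. On the deposited scale Srsf5, Clk1 and Clk4 were lower in heat-shocked chromatin, Srsf1 and Srsf11 were higher, and the other 5 genes differed by less. The ratio was 0.513 for Srsf5 (0.470 to 0.559), 0.525 for Clk1 (0.489 to 0.564) and 0.667 for Clk4 (0.617 to 0.720). It was 1.46 for Srsf11 (1.40 to 1.52) and 1.41 for Srsf1 (1.33 to 1.51). Srsf6 had a ratio of 0.880 (0.811 to 0.954), and intervals included 1 for Srsf2 (1.05), Srsf3 (1.02), Srsf10 (1.01) and Srsf7 (0.929).

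None of the 10 was called at least 2-fold higher or lower in chromatin, where 10.4% and 4.66% of 4635 genes were. Srsf5 came nearest, at -0.89 on the log2(RPKM + 1) scale, lower than all but 6.19% of genes, followed by Clk1 at -0.79 (7.59%) and Clk4 at -0.46 (16.3%). The members' median was -0.04 and that of all genes 0.12. Srsf5, Clk1 and Clk4 were below 0 on every scale used, whereas Srsf1 and Srsf11 turned to -0.14 and -0.09 with RPKM sums made equal. Whatever the scale, Srsf11 stood 2.78 times above Clk1 (2.55 to 3.02) and 2.84 times above Srsf5 (2.58 to 3.14) in this ratio, and Clk1 and Srsf5 differed by 1.02 times (0.915 to 1.15).

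In cytoplasm all 10 genes had lower deposited RPKM in heat-shocked than in unstressed cells, as did most genes compared (upper quartile 0.853). Srsf5 had the lowest ratio, 0.360 (0.280 to 0.460), followed by Srsf6 with 0.480 (0.412 to 0.559), Srsf10 with 0.497 (0.420 to 0.589) and Srsf3 with 0.549 (0.418 to 0.718). Srsf2 (0.670), Srsf7 (0.720) and Srsf1 (0.748) were near the median of all 4505 genes, 0.692. Srsf11 (0.947, 0.830 to 1.08), Clk4 (0.920, 0.653 to 1.30) and Clk1 (0.837, 0.623 to 1.13) had intervals that included 1 and lay above that median.

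Only Srsf5 was called at least 2-fold lower in cytoplasm, at -1.09 on the log2(RPKM + 1) scale, where 2.44% of all genes were, and 0 members were called higher, where 3.4% of all genes were. The members' median was -0.47, against -0.25 over all genes, while the medians of plain log2 ratios were nearly equal, -0.526 and -0.530. On this scale of calls the 7 SR genes other than Srsf11 were below 0 under every rescaling used, although the plain log2 ratios of Srsf1 and Srsf7 were 0.11 and 0.06 once centred on the median of all genes. Srsf11, Clk1 and Clk4 were above 0 with all genes centred on their median (0.20, 0.15 and 0.22) and with the 10 most abundant genes left out of the scale. Relative to Srsf5, Clk4 was 2.56 times higher (1.66 to 3.93) and Clk1 2.33 times higher (1.57 to 3.44) in this ratio. The ratio of Srsf6 was 1.34 times that of Srsf5 (0.997 to 1.79), within counting error, as was that of Clk1 in chromatin.

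**Figure D4:**
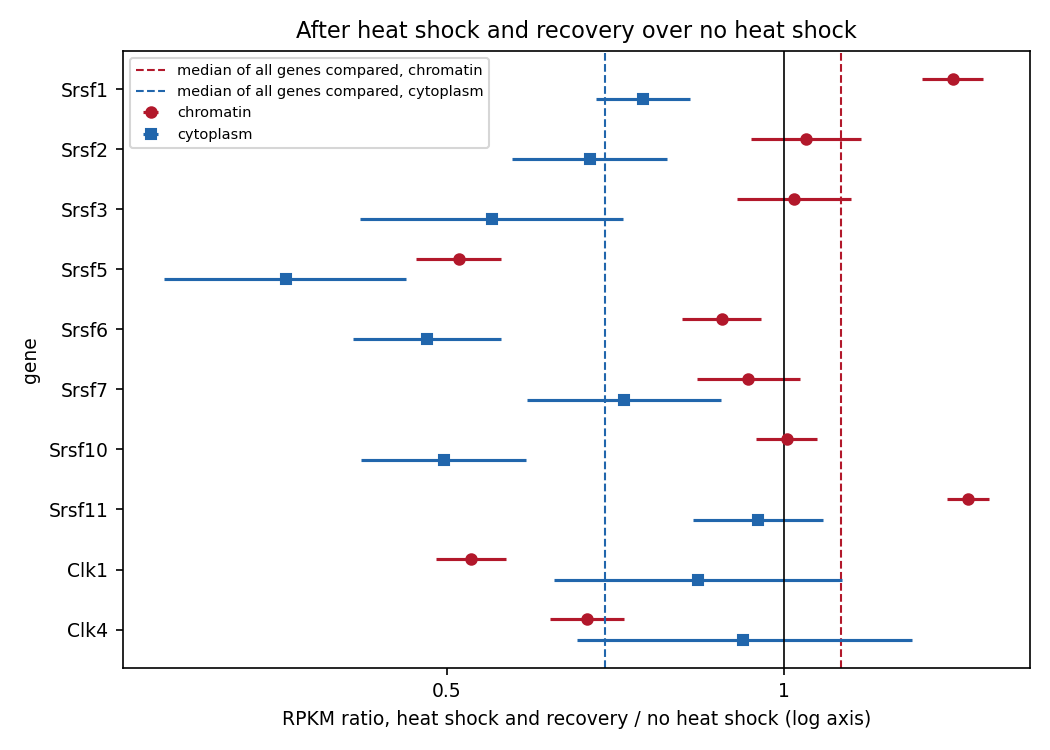
RPKM ratio of heat-shocked to unstressed cells (log axis) in chromatin and in cytoplasm, with exact 95% counting intervals; dashed lines mark the medians of all genes compared (1.12 and 0.692). On the deposited scale drawn here, the chromatin ratio of the 8 SR genes lies right of the cytoplasmic ratio, and for Clk1 and Clk4 it lies left of it.

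RefSeq windows run from 250 bases before to 50 after a start site. Sequence upstream of the start site is shown for 4 genes with at most 4 of these 250 bases inside the annotated gene. On the deposited scale Clk4 and Srsf5 were lower in heat-shocked chromatin, and Srsf3 and Srsf6 differed less there. Srsf5, Srsf3 and Srsf6 were lower in heat-shocked cytoplasm, where the interval of Clk4 included 1. With RPKM sums made equal, all 4 were lower in heat-shocked chromatin. The 250 bases before the start site are given 5′ to 3′ on the strand of the gene (all plus), from GRCm38.p6, at chr11:51262864-51263113 for Clk4, chr12:80945249-80945498 for Srsf5, chr17:29032410-29032659 for Srsf3 and chr2:162931258-162931507 for Srsf6. Capitals mark matches, on either strand, to the GC box (GGGCGG), the CCAAT box (CCAAT), the TATA box (TATAAA), the ETS element (ACTTCCGG) and the cAMP response element (TGACGTCA).
Clk4: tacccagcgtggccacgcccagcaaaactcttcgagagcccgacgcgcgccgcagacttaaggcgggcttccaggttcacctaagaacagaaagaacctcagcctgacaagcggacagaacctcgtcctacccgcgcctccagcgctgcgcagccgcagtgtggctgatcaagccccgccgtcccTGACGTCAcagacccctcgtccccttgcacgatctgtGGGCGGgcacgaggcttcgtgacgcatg
Srsf5: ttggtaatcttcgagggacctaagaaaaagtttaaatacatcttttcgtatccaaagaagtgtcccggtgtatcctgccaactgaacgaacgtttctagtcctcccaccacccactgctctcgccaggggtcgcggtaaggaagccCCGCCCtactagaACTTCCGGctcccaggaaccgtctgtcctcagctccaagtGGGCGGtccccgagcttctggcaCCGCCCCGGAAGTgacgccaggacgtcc
Srsf3: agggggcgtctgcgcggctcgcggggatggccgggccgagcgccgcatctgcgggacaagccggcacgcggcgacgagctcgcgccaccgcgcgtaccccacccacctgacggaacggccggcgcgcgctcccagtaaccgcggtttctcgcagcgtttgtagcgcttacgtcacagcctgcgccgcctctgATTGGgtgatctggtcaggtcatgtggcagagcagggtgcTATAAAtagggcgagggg
Srsf6: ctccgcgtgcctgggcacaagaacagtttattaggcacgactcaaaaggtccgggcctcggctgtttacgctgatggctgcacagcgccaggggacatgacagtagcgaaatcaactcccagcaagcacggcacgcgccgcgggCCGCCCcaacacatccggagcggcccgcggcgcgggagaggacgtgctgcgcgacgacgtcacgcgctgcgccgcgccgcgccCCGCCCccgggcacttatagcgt

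Both spacings of paired heat shock element units, GAANNTTC and TTCNNGAA, were also searched in the whole windows. RefSeq windows were at hand for 9 of the 10 members, 10 windows in all, and Clk1 had none. No member window held either one, while 7.86% and 8.52% of all 32851 windows did. The cAMP response element was found in 1 member window, that of Clk4, and in 1.79% of all windows. The ETS element was found in the window of Srsf5, which holds it at 2 places, and in 3.89% of all windows. Srsf11 also held it, in a window whose 250 upstream bases lie inside the RefSeq gene. A match or its absence in these windows describes the letters and says nothing of binding.

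The last comparison set the heat shock ratio in chromatin over that in cytoplasm, gene by gene. This ratio of ratios was 0.627 for Clk1 (0.462 to 0.851) and 0.725 for Clk4 (0.509 to 1.03). For the 8 SR genes it was between 1.29 (Srsf7, 1.03 to 1.62) and 2.02 (Srsf10, 1.69 to 2.42). By value the kinases lay below all 8 SR genes, although the intervals of Clk4 (up to 1.031) and Srsf7 (from 1.029) overlapped. On the deposited scale the intervals of all 8 SR genes lay above 1, that of Clk1 lay below 1, and that of Clk4 included 1. The SR genes were spread around the median of all 4473 genes, 1.62, with Srsf1 at 1.89, Srsf3 at 1.86, Srsf6 at 1.83, Srsf2 at 1.56, Srsf11 at 1.54 and Srsf5 at 1.43. Clk1 and Clk4 were below it.

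On the log2(RPKM + 1) scale Clk1 was at -0.69 and Clk4 at -0.42, lower than all but 7.67% and 12.3% of genes. Neither passed 2-fold, and 0 of 10 members were called in either direction, where 16.5% of all genes were called higher and 4.52% lower. The members' median was 0.58 and that of all genes 0.37, but on plain log2 ratios the order turned, with 0.63 for the members and 0.70 for all genes. Across the scales used Clk1 ran from -1.28 to -0.54 and Clk4 from -0.98 to -0.30, below 0 throughout. Srsf1, Srsf3, Srsf6 and Srsf10 were above 0 under each rescaling, and so were Srsf2 and Srsf11 except that their plain log2 values were -0.05 and -0.07 once centred on the median of all genes. On the log2(RPKM + 1) scale Srsf5 and Srsf7 were at -0.44 and -0.22 with RPKM sums made equal and at -0.17 and -0.11 with all genes centred on their median. This ratio rests on the same 4 libraries as the ones above and is no separate evidence. For the kinases it rests on 100 and 89 (Clk1) and 79 and 64 (Clk4) reads in heat-shocked and unstressed cytoplasm.

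**Figure D5:**
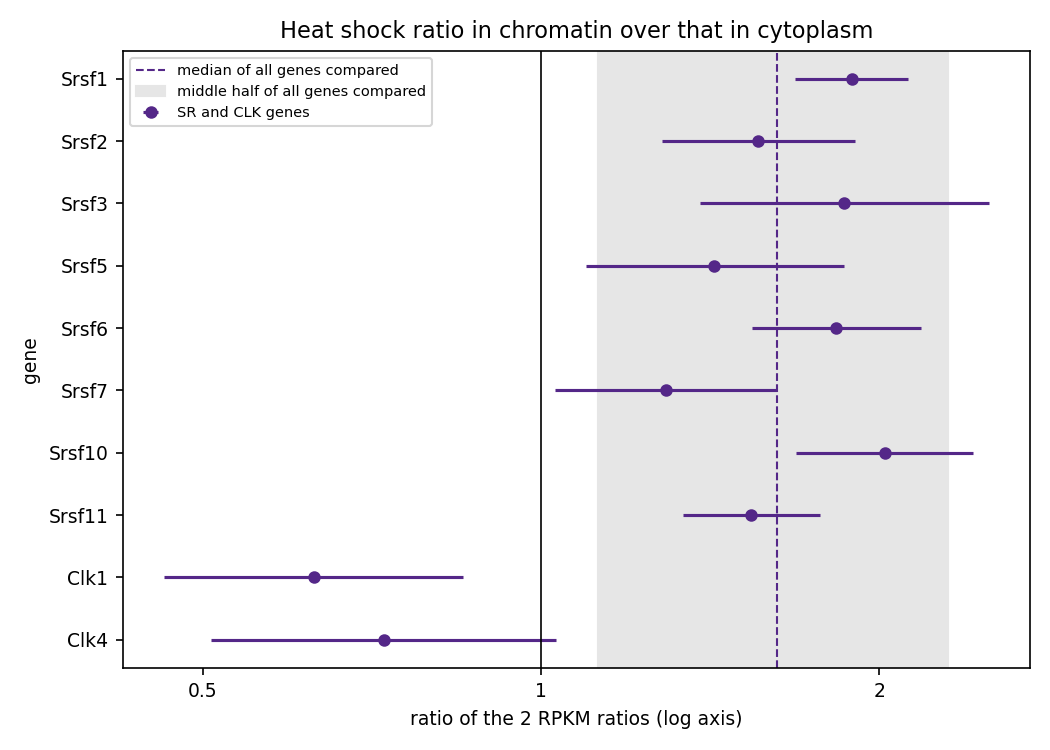
Heat shock ratio in chromatin divided by that in cytoplasm (log axis) for each gene, with exact 95% counting intervals; the dashed line is the median of all genes compared (1.62) and the grey band runs from 1.12 to 2.30, their lower and upper quartiles. The 8 SR genes lie inside the band, and Clk1 and Clk4 lie left of it at 0.627 and 0.725.

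Likeness of pattern was measured as the Euclidean distance between log2(RPKM + 1) values over the 4 libraries, each gene's mean removed. Clk1 and Clk4 were each other's nearest member, at a distance of 0.388, and among 4472 genes Clk4 ranked 58 in likeness to Clk1 and Clk1 ranked 201 in likeness to Clk4. Srsf3 and Srsf10 (0.360), Srsf1 and Srsf2 (0.402) and Srsf6 and Srsf7 (0.406) were also mutually nearest among the members. In these pairs the nearest member ranked only between 122 (for Srsf6) and 741 (for Srsf7) among the 4472 genes. The distances from single members to all genes had medians of 0.790 to 1.53. The 5 other genes nearest to the members' mean pattern had distances of 0.0318 to 0.0743, led by ENSMUSG00000033732, with 4.28 and 4.83 RPKM in heat-shocked and unstressed chromatin and 1.21 and 2.01 in heat-shocked and unstressed cytoplasm. The files do not pair these identifiers with names. Of the members, Srsf3 lay nearest to the mean pattern (0.157) and Srsf2 farthest from it (1.14).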

How the data were processed

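RNA-seq of chromatin and cytoplasm of heat-shocked and unstressed MEFs was analysed, with groups taken from sample titles. The deposited files hold 1 RPKM value per Ensembl gene, computed by the authors, and list no gene without a read. Cutadapt, STAR and GRCm38 are named, without versions, per the submitters' processing notes. The read counter, like the annotation release and strand handling, was not given in the sources used here.

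Since RPKM is reads over length and library total, totals were recovered as common divisors of the inverse RPKM values (20000 random pairs, whole within 0.002), and reads and length per gene as the smallest whole numbers that give the values of all 4 libraries. Relative errors were at most 5.1e-15. The recovery was tested on simulated data. Reads that share a factor with the length come out too few, with ratios unaffected. Recovered reads summed to 98.4% to 99.7% of the totals.

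Folds are plain RPKM ratios with exact 95% intervals (Clopper-Pearson; conditional for ratios of ratios). They cover counting error only, since PCR copies were not told from separate molecules. Calls used log2((RPKM + 1)/(RPKM + 1)) of at least 1 in size, a pseudocount of 1 RPKM, for genes with a mean of at least 1 RPKM and reads in the compared libraries. Alternatives were a pseudocount of 0.1, 3 other scales, a minimum of 5 RPKM and no minimum. Python 3.11.15, numpy 2.4.6, pandas 2.3.3, scipy 1.17.1 and matplotlib 3.10.9 were used. Symbols of the members came with the list of identifiers. All 10 members were to be named. Genes of other lists (further splicing factors, heat shock genes, fraction and fibroblast markers) were not looked up here, since no table used here pairs their names with Ensembl identifiers, so the labels and the cell type were not checked against markers. Members, lists and comparisons were chosen with earlier results of these data known. Promoter sequences are RefSeq's, on GRCm38.p6.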

Additional observations from a re-analysis of the deposited data

Results flagged for a closer look

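For 5 SR genes the log2(RPKM + 1) ratio of heat-shocked to unstressed cells was above 0 in chromatin and below 0 in cytoplasm on the deposited scale. Beyond counting error this held for Srsf1 alone, and with RPKM sums made equal all 5 were below 0 in both fractions. The chromatin minus cytoplasm difference was 0.86 for Srsf1, 0.69 for Srsf10, 0.62 for Srsf3, 0.61 for Srsf2 and 0.54 for Srsf11. None of these differences was tested, each group being 1 library. On the deposited scale the chromatin ratio exceeded 1 beyond counting error for Srsf1 and Srsf11, and the cytoplasmic one was below 1 beyond counting error for Srsf1, Srsf2, Srsf3 and Srsf10. Over all genes compared the median difference was 0.37. On plain log2 ratios it was 0.70, above the values of Srsf2 (0.64) and Srsf11 (0.62).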

How the results depend on the processing

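Counts of members past 2-fold depended mainly on the scale, with 1 library per group and no replicate to set it. With RPKM sums made equal, 3 members were called lower in heat-shocked chromatin (none on the deposited scale), where 17.3% of all genes were. In heat-shocked cytoplasm 2 were lower (1), where 2.57% of all genes were. Higher in chromatin than in cytoplasm were 10 in heat-shocked (7) and 10 in unstressed cells (5), beside 74.1% and 72.9% of all genes. In the difference of heat shock ratios 1 was lower (0), where 11.6% of all genes were. With all genes centred on their median, 1 was lower in heat-shocked chromatin and 0 in heat-shocked cytoplasm, beside 6.21% and 1.62% of all genes. In chromatin over cytoplasm 1 was higher in heat-shocked and 2 in unstressed cells, beside 8.57% and 12.1% of all genes. In the difference 1 was lower, beside 8.54% of all genes. With the 10 most abundant genes left out of the scale, 0 were higher and 1 lower in heat-shocked chromatin than in cytoplasm. Of all genes 6.99% were higher and 21.6% lower there. In unstressed chromatin 1 was higher and 3 were lower, beside 4.39% and 31.5% of all genes. On that scale Srsf6 (-0.43, heat-shocked) and Srsf10 (-0.30, unstressed), both called higher in chromatin on the deposited scale, turned sign. With a pseudocount of 0.1, 2 were lower in heat-shocked cytoplasm, where 9.57% of all genes were. Higher in chromatin than in cytoplasm were still 7 in heat-shocked and 5 in unstressed cells. The shares of all genes rose to 62.4% and 47.9%, so these counts were then close to the background. A minimum of 5 RPKM left 5 members, with 3 (heat-shocked) and 2 (unstressed) higher in chromatin, beside 35.0% and 27.2% of all genes. Without a minimum no count changed, nor could it, since all 10 members pass the minimum of 1 RPKM. The shares of all genes higher in chromatin than in cytoplasm were then 13.4% in heat-shocked and 12.8% in unstressed cells. Among single-gene values under the alternatives, 153 moved by less than the counting interval, 120 by more, and 2 turned sign after a call. The 153 include the values under a changed minimum, which cannot move a gene's own ratio, so they overstate stability. Of all genes called on the deposited scale, 69.0% were called higher in heat-shocked chromatin, 58.2% in heat-shocked cytoplasm, 86.9% and 73.4% in heat-shocked and unstressed chromatin over cytoplasm, and 78.5% in the difference. These shares were 26.1%, 47.7%, 97.2%, 95.3% and 44.2% with equal sums, 57.6%, 73.6%, 33.4%, 37.9% and 48.2% after centring, and 81.9%, 70.4%, 24.4%, 12.2% and 77.6% without the 10 genes. A pseudocount of 0.1 gave 35.4% in heat-shocked cytoplasm. A minimum of 5 RPKM gave 81.0%, 59.1% and 38.9% in heat-shocked chromatin, and in heat-shocked and unstressed chromatin over cytoplasm. No paired analysis was possible because each group has 1 library. Depth limits Clk1 and Clk4 in cytoplasm.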

Other observations

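The members' promoter windows had more G and C than most. Their GC content ran from 56.0% to 71.3%, against a median of 52.7% over all 32851 RefSeq windows, and they held 20 to 45 CG dinucleotides, against a median of 7. The GC box GGGCGG was found, on either strand, in 9 of the 10 member windows and in 35.7% of all windows. CCAAT was found in 4 member windows (Srsf1, Srsf2, Srsf3 and Srsf10) and in 37.4% of all windows. TATAAA was found in those of Srsf2 and Srsf3 and in 13.6% of all windows. For Srsf1, Srsf2, Srsf10 and the Srsf11 window at chr3:158031749-158031998, all 250 bases before the start site lay inside the RefSeq gene. The CCAAT match of Srsf1 began at -3 and ran across the start site. These are descriptions of the sequence, made after the values were known.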
